A study of Mus musculus with 9 samples.

Results

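The genes described here build the DNA replication fork: 45 genes in 10 role groups, from the origin recognition complex and the MCM helicase to the polymerases, the sliding clamp and the enzymes that supply deoxynucleotides. They were found by gene symbol among the 18193 genes with a probe set (a group of array probes for 1 transcript) annotated to a single symbol. Each gene is represented by its brightest such probe set over all 9 arrays. Of the 45 genes, 44 reached the signal minimum of 50 on at least 2 arrays and were among the 8716 genes tested, and all 44 reached 50 on every array. The exception was Tyms, the thymidylate synthase gene, whose brightest probe set read between 19.5 and 48.0 and was not tested. Mcm2 and Pcna, fixed as markers of the group, read at least 704 and at least 3602 on every array.

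The arrays measured RNA of mouse embryonic stem (ES) cells, with 1 Affymetrix array per group and no replicate. One array held undifferentiated cells, which were kept in medium with leukemia inhibitory factor (LIF) and doxycycline. The other 8 held cells harvested at 0.5, 1.5, 2.5 or 3.5 days of differentiation (named D0.5, D1.5, D2.5 and D3.5) in serum medium without LIF, either with 1 µg/ml doxycycline (Dox+) or without it (Dox-). In the study's design doxycycline governs a constitutively active protein kinase A (PKA), which normally responds to cyclic AMP. Which medium switched the kinase on is not said in the labels, and the groups are therefore called by medium. All groups come from cells that were maintained with doxycycline, and the labels give neither the strain, the line nor the promoter that drives the kinase.

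Replication begins at origins, which the 6-subunit origin recognition complex (Orc1 to Orc6) marks. In late mitosis and G1 phase, Cdc6 and Cdt1 help the complex load the MCM helicase onto DNA, a step called licensing, and geminin (Gmnn) blocks Cdt1 once S phase has begun. The kinase of Cdc7 and its partner Dbf4, together with Mcm10, Cdc45 and the GINS complex, turns the loaded helicase into a moving one. Polymerase alpha and its primase lay down primers, polymerase epsilon and polymerase delta extend them on the leading and lagging strands, and the clamp PCNA, loaded by replication factor C, holds polymerases on DNA. In somatic cells many of these genes are transcribed in G1 and S phase under E2F factors, and pluripotent ES cells are known for a short G1 phase, so that most ES cells are in S phase at any time.

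Promoter sequence is shown for 9 of these genes, because E2F factors are the textbook regulators of the group. RefSeq promoter windows of assembly GRCm38.p6, which run from 250 bases before to 50 bases after an annotated start, were matched by symbol for 37 of the 45 genes. Gmnn, Mcm4, Gins1, Gins2, Gins4, Prim2, Pole and Rfc2 had none. Both strands were searched for 4 E2F-type strings of 8 letters, TTTCCCGC, TTTCGCGC, TTTGCCGC and TTTGGCGC, which can overlap each other on opposite strands. At least 1 string was present in 14 of the 37 genes (37.8%), against 2.60% of the 27025 genes with a window and 5.33% of the 7170 tested genes with one. The 14 genes were Orc1, Orc3, Cdc6, Cdt1, Mcm3, Mcm5, Mcm6, Mcm7, Gins3, Pola1, Pold1, Pole2, Rfc3 and Lig1. The pentamer CCAAT, on either strand, was present in 23 of the 37 genes (62.2%) and in 41.1% of all genes with a window. Each stretch printed here is the 170 bases just before the outermost annotated start of the gene, read along the gene's own strand, and capitals mark the E2F-type letters. The first 5 genes hold such letters; Cdc7, Dbf4, Rfc5 and Rpa1 hold none in their windows and are shown because the results on day and medium turn on them.
Mcm5, chr8:75109298-75109467, plus strand: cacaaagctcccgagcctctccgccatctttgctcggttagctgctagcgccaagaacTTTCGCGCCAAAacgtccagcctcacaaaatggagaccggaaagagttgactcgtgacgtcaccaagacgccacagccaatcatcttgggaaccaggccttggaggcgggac
Mcm6, chr1:128359706-128359875, minus strand: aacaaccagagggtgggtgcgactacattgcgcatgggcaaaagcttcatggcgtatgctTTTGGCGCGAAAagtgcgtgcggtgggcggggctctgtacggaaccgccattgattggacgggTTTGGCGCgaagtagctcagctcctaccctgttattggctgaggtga
Gins3, chr8:95633389-95633558, plus strand: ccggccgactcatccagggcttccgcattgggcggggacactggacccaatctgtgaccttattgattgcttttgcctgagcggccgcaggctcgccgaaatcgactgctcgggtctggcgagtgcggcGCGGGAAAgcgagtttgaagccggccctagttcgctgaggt
Orc3, chr4:34614964-34615133, minus strand: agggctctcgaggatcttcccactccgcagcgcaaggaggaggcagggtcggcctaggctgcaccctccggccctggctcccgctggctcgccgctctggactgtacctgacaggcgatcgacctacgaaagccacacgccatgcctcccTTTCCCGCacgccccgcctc
Rfc3, chr5:151651209-151651378, minus strand: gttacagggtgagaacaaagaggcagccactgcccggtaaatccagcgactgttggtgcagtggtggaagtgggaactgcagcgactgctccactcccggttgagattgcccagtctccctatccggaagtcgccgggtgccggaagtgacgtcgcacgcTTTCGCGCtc
Cdc7, chr5:106964145-106964314, plus strand: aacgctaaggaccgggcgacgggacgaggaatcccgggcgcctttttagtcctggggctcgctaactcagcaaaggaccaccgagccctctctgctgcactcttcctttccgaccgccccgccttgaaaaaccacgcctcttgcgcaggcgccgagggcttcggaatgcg
Dbf4, chr5:8422726-8422895, minus strand: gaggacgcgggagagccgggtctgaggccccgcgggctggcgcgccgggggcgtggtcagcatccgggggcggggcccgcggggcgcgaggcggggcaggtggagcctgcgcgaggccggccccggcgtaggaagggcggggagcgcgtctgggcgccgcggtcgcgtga
Rfc5, chr5:117389024-117389193, minus strand: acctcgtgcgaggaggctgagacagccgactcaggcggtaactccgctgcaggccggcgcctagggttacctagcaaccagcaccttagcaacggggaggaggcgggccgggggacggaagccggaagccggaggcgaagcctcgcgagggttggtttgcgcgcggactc
Rpa1, chr11:75348455-75348624, minus strand: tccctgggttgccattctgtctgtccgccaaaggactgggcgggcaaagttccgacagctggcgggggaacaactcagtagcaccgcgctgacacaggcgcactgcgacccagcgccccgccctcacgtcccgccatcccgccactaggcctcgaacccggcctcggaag

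In the Mcm5 stretch, TTTCGCGC on the gene's strand shares its last letters with GCGCCAAA, the reverse complement of TTTGGCGC. In Mcm6 the letters occur 3 times, first as an overlapping pair and then once more, closer to the start. A match is a description of letters, and no match says only that these letters are not in the window. Among the genes that fell between D0.5 and D3.5 (described after the array values), 3 of the 8 with a window held E2F-type letters (Cdt1, Mcm5 and Pole2), and among those that did not pass the test 11 of 28 did.

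On the undifferentiated array the 44 tested genes had a median signal of 696, where the deposited signals are scaled to a trimmed mean of 100 on every array. In Dox+ the median read 679, 621, 603 and 608 from the first day to the last, and in Dox- it read 664, 612, 587 and 537. Signals of different probe sets do not compare transcript levels, so only changes of each gene are described. Pou5f1, Sox2 and Nanog, the genes that define pluripotent cells, read 2263, 2582 and 1630 in undifferentiated cells. Between 41.6% and 44.2% of genes reached a signal of 50 per array. For Actb the 3' probe set read 1.60 to 1.98 times the 5' one, a measure of how intact the RNA was. For Gapdh that ratio was between 0.904 and 1.1.

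**Figure D1:**
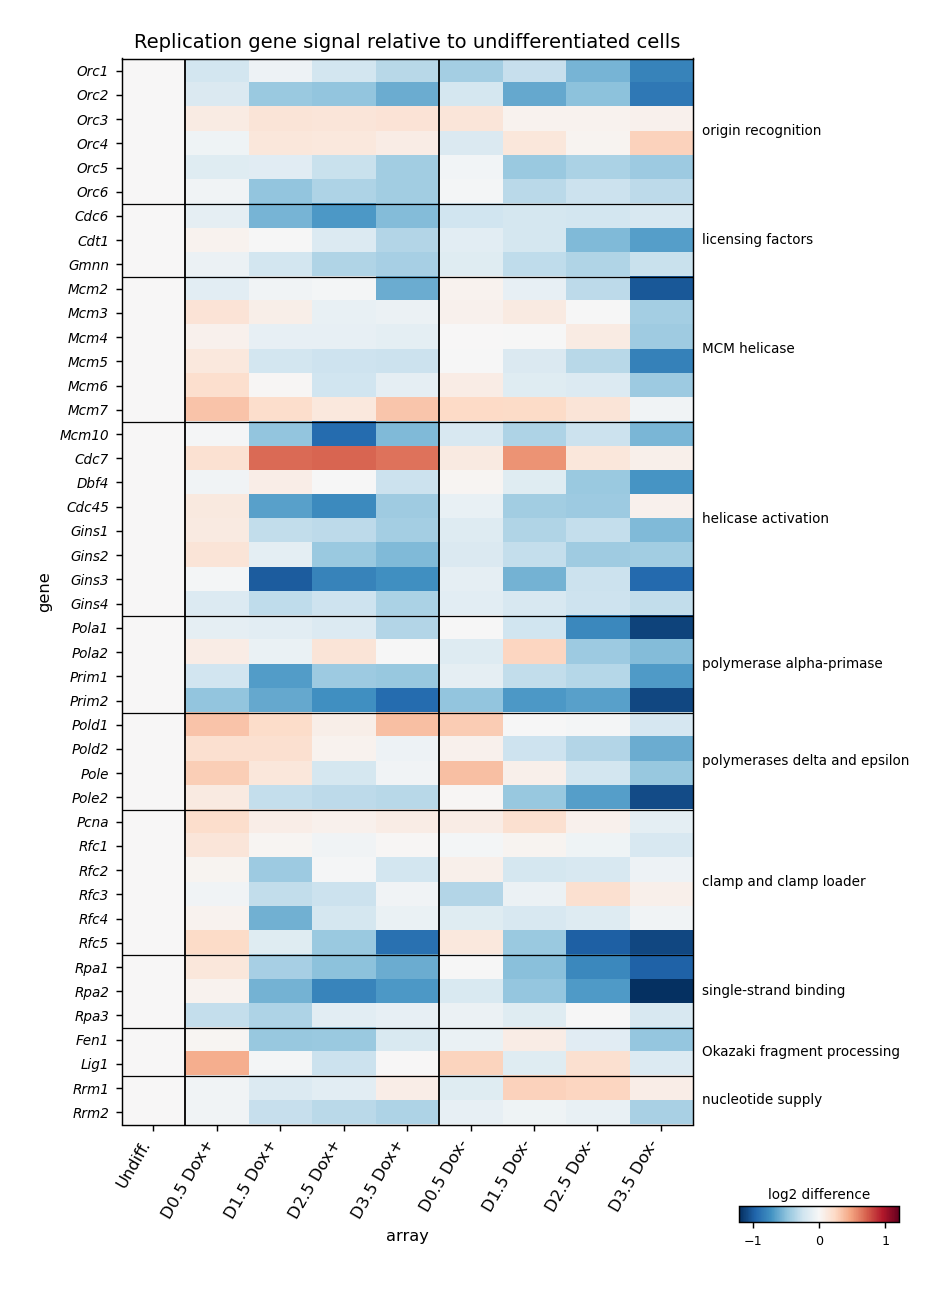
Signal of the 44 tested replication genes (rows, in role groups) on each of the 9 arrays (columns), as the log2(signal + 16) difference from the undifferentiated array; blue is lower and red higher. Most rows turn blue with day in both media, the D3.5 Dox- column is the lowest of the 9 arrays for 26 genes, and Cdc7 is the most strongly red row on the Dox+ arrays.

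Leaving the undifferentiated state for 0.5 days left the group median near its starting level. D0.5 less undifferentiated, the median difference over the 44 genes was 0.04 in Dox+ and -0.05 in Dox-, on the log2(signal + 16) scale that is used for all differences here and that understates changes of dim genes. Over all 8716 genes the medians were 0.04 and 0.00064. None of the 44 genes was 2-fold lower or higher on either D0.5 array, where 1.30% of all genes were 2-fold lower on each and 1.43% (Dox+) and 1.57% (Dox-) higher. These comparisons set 1 array against another and carry no test. Prim2, the large primase subunit, had the lowest value in both media, with 379 in undifferentiated cells against 268.5 in Dox+ and 269 in Dox-. Lig1, the ligase that seals Okazaki fragments, had the highest value in Dox+, with 1487 against 1092, and read 1315 in Dox-. The D0.5 Dox+ array was the highest of the 9 arrays for 17 of the 44 genes, against 12.1% of all genes. D3.5 less undifferentiated, the group median was -0.30 in Dox+ and -0.43 in Dox-. For the 4 genes of polymerases delta and epsilon, all higher on both D0.5 arrays than in undifferentiated cells, that median was -0.05 in Dox+ and -0.53 in Dox-.

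From D0.5 to D3.5 the replication genes read lower as a group in both media. The fitted D3.5 less D0.5 difference was negative for 39 of the 44 genes, against 48.4% of all tested genes, and its median was -0.34, against 0.02 over all genes. Fitted to the 8 differentiating arrays with medium as a block (limma, Benjamini-Hochberg adjustment over all 8716 genes, call at an adjusted p under 0.05), 11 of the 44 genes fell and 0 rose. Over all genes 10.2% were called lower (890 genes) and 11.8% higher (1027 genes). With each array centred on the median of all genes, 18 of the 44 genes were called lower, and over all genes 1158 were called lower and 830 higher. The 11 genes were Orc2, Cdt1, Mcm2, Mcm5, Gins1, Prim2, Pole, Pole2, Rfc5, Rpa1 and Rpa2. Fewer genes passed on the earlier days. D1.5 less D0.5, Rpa1 fell (-0.52 ± 0.09, limma adjusted p = 0.0466) and 0 genes rose, against 1.32% of all genes called lower and 1.73% higher, and the group median was -0.17. D2.5 less D0.5, Rpa1 (-0.70 ± 0.09) and Rfc5 (-0.89 ± 0.12) fell and 0 genes rose, against 5.60% and 6.46% of all genes, and the group median was -0.25. The 2 media are the only repeats of each day, so the p-values reflect no more than the spread among the 8 arrays.

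The count of calls rests on single arrays. Without the D0.5 Dox- array 0 of the 44 genes passed, and of all genes 66 did in place of 1917. Without the D3.5 Dox- array Rfc5 and Rpa1 passed, without the D0.5 Dox+ array 5 genes, and without the D3.5 Dox+ array 11. The group median stayed negative without each of these 4 arrays, between -0.46 and -0.30. In Dox+ alone the median D3.5 less D0.5 difference was -0.26, with 37 of 44 genes lower and 1 at least 2-fold lower and 0 higher (5.20% and 8.33% of all genes). In Dox- alone it was -0.39, with 38 of 44 lower, and 5 at least 2-fold lower and 0 higher (8.20% and 11% of all genes). Both D3.5 arrays read below both D0.5 arrays for 29 of the 44 genes, against 31.7% of all genes, and above them for Orc4, Rfc3 and Rrm1, against 35.2% of all genes. At every step from day to day and in both media 7 genes read lower by their brightest probe sets, Cdt1, Mcm5, Pola1, Pold2, Pole2, Rfc5 and Rpa1 (4.84% of all genes). Second probe sets of Cdt1 and Mcm5 broke this order in Dox+. That of Cdt1 rose from 780 on D0.5 to 822.5 on D1.5, and that of Mcm5 from 322 on D2.5 to 341.5 on D3.5. The second Rpa1 probe set was lower at every step in both media. In bulk RNA of this kind, fewer cells in S phase and less RNA of a gene per cell cannot be told apart.

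Other cell states moved over the same days. The summed signal of the 5 pluripotency markers was 9770 in undifferentiated cells, went from 7943 to 4971 between D0.5 and D3.5 in Dox+, and from 8122 to 1169 in Dox-. Between these days Nanog alone rose from 914 to 1887 in Dox+ and fell from 745 to 306 in Dox-. The 7 mesoderm markers, 6 of them tested, summed to 54.0 and 736 in Dox+ and to 71.7 and 3762 in Dox- on the same days. The 8 fibroblast markers, of which 2 were tested, summed to between 43.2 and 461 and were highest on the D3.5 Dox- array, but they did not share a direction: on D3.5 Col1a1 read 7.30 in Dox+ and 157 in Dox-, whereas Dcn read 62.8 and 8.20. The 5 vascular and blood markers, 3 of them tested, summed to between 59.2 and 795, highest on the D1.5 Dox- array. The 3 endoderm markers, all tested, summed to between 9.20 and 340.3, highest on the D3.5 Dox- array. Cxcr4, with 243.6, made up most of that highest sum. The endoderm markers did not share a direction on D3.5 either. Foxa2 read 78.6 in Dox+ and 11.5 in Dox-, whereas Sox17 (14.2 and 85.2) and Cxcr4 were higher in Dox-. None of these markers was at 0 on any array. The Actb ratio was 1.94 on the D3.5 Dox+ and 1.63 on the D3.5 Dox- array, whereas the Gapdh ratio was 1.07 and 1.1. The part of these shifts in the change of the replication genes was not tested.

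**Figure D2:**
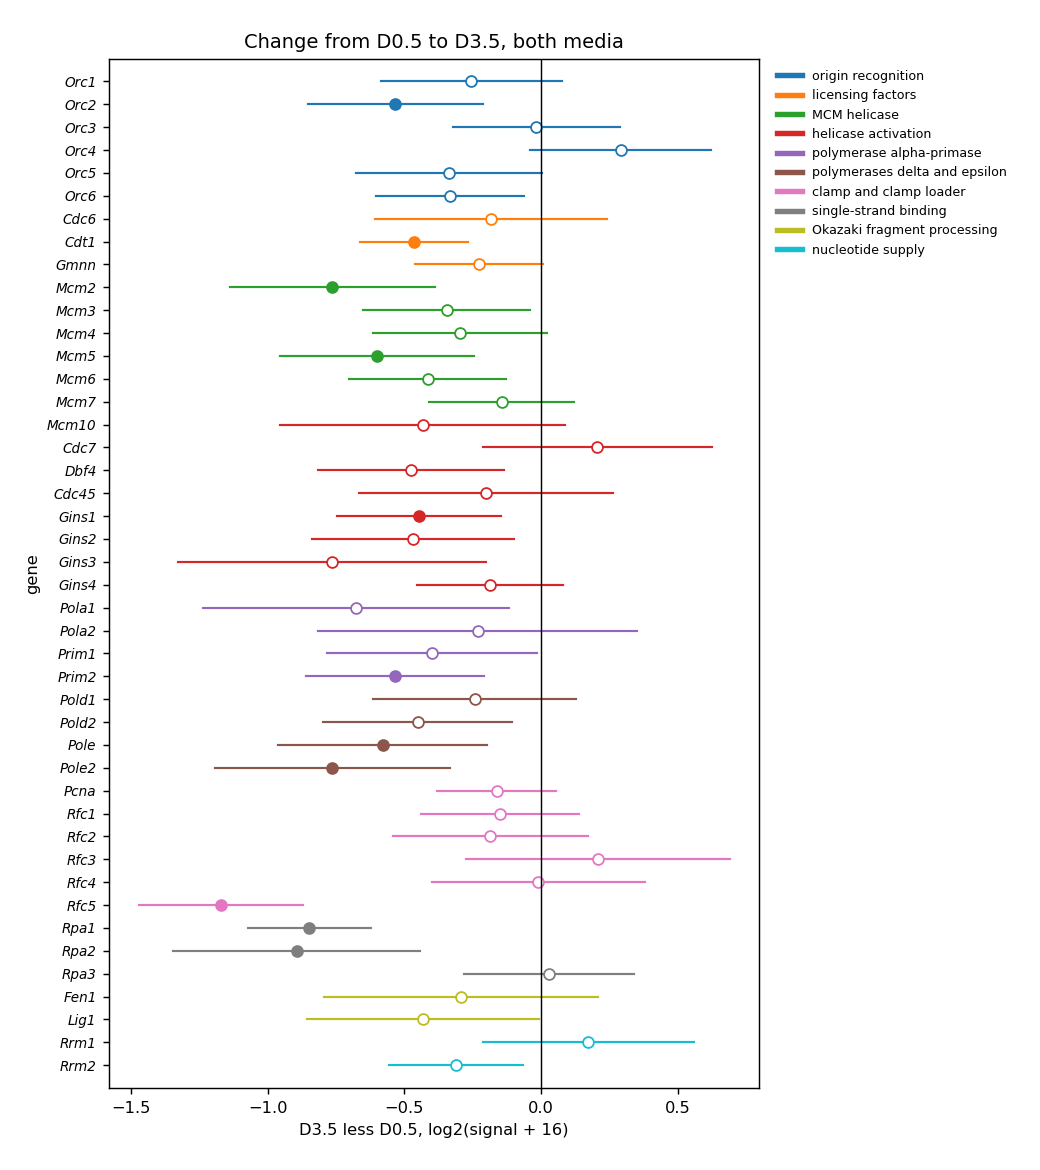
Fitted D3.5 less D0.5 difference of each of the 44 tested genes in log2(signal + 16), over both media (point, with its 95% interval as a line); colours are role groups and filled points passed an adjusted p under 0.05. Rfc5 lies furthest left at -1.17, 39 of 44 points lie left of 0, and the 5 to the right are open.

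Among the 6 origin recognition genes only Orc2 passed the test. It read 500 in undifferentiated cells, 440.1, 363.5, 355 and 326 in Dox+ (here and in the following, in order of day), and 431, 321, 351 and 268 in Dox-. Both D3.5 arrays were below both D0.5 arrays, and the fitted difference was -0.53 ± 0.13 (SE; limma adjusted p = 0.0360). Its other probe sets gave -0.69 and -0.63. The group median was -0.29. Orc5 and Orc6 had differences of -0.34 and -0.33, Orc1 of -0.25 and Orc3 of -0.02. Orc4 lay the other way, at 0.29 ± 0.14 (adjusted p = 0.174), but a dimmer probe set of it gave -0.08.

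Of the 3 licensing factors, Cdt1 fell and Cdc6 and Gmnn did not pass. Cdt1 read 3173 in undifferentiated cells, 3272, 3171, 2836 and 2490 in Dox+, and 2903, 2741, 2192 and 1995 in Dox-. By this brightest probe set it was lower at every step in both media and lower in Dox- on all 4 days. Its D3.5 less D0.5 difference was -0.46 ± 0.08 (limma adjusted p = 0.0144). A second Cdt1 probe set rose from 780 to 822.5 between D0.5 and D1.5 in Dox+ and was lower at the other steps. Gmnn, which encodes the inhibitor of Cdt1, had a difference of -0.23 ± 0.10 (adjusted p = 0.144). Cdc6, the loading ATPase, had -0.18 ± 0.17 (adjusted p = 0.476).

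All 6 MCM helicase genes had negative D3.5 less D0.5 differences, with a median of -0.38, and Mcm2 and Mcm5 passed. Mcm2 read 1442 in undifferentiated cells, 1318, 1403, 1415 and 947 in Dox+, and 1482, 1350, 1160 and 704 in Dox-. By this brightest probe set its level held to D2.5 in Dox+, and both D3.5 arrays were the lowest of the 9. The difference was -0.76 ± 0.16 (limma adjusted p = 0.0211), or 1.70-fold lower on the fitted scale. A second Mcm2 probe set did not hold its level in Dox+, where it read 893, 833, 728 and 607. Its D3.5 arrays were also the lowest of the 9. Mcm5 read 2779, then 3044, 2385, 2332 and 2316 in Dox+ and 2771, 2466, 2209 and 1572 in Dox-. By its brightest probe set most of the Dox+ step lay between D0.5 and D1.5, whereas the largest Dox- step was the last. The difference was -0.60 ± 0.15 (limma adjusted p = 0.0344). A second Mcm5 probe set read 561, 453, 433 and 371 in Dox-, where the largest step was the first. Mcm6 just missed the threshold (-0.42 ± 0.12, adjusted p = 0.0520), Mcm3 and Mcm4 had -0.34 and -0.30, and Mcm7, the brightest of the 6, had -0.14. Other probe sets of Mcm7 lay further from 0, at -0.32, -0.47 and -0.21. The products of the 6 genes form 1 ring around DNA.

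Among the 8 genes of helicase activation Gins1, a subunit of the 4-part GINS complex, passed (-0.45 ± 0.12, limma adjusted p = 0.0486). It passed under 4 of 16 other settings. Gins3 had a larger difference, -0.77 ± 0.23, that did not pass (adjusted p = 0.0621); it read 131 and 123 on the D0.5 arrays and 74.0 and 62.9 on the D3.5 arrays. Gins2, Dbf4 and Mcm10 had -0.47, -0.48 and -0.43, Cdc45 and Gins4 had -0.20 and -0.19, and Cdc7 had 0.21 ± 0.17. Between D0.5 and D1.5 Cdc7 had the highest value of the 44 genes (0.46 ± 0.17, adjusted p = 0.188), and Gins3 (-0.72) and Cdc45 (-0.55) the lowest.

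All 8 polymerase genes had negative differences when fitted over both media. For polymerase alpha and primase the median was -0.47, and Prim2 passed (-0.53 ± 0.13, limma adjusted p = 0.0378). A second Prim2 probe set gave -0.23, and the call was lost with the mean of all probe sets. Pola1, the catalytic subunit of polymerase alpha, had -0.68 ± 0.23 (adjusted p = 0.0843), with -0.25 in Dox+ and -1.11 in Dox-. Prim1 had -0.40 and Pola2 -0.23. For polymerases delta and epsilon the median was -0.52, and both polymerase epsilon genes passed. Pole2, its second subunit, read 780 in undifferentiated cells, 844, 636, 623.5 and 617 in Dox+, and 786, 564, 487 and 361.5 in Dox-. Every step was down in both media, and the difference was -0.76 ± 0.18 (adjusted p = 0.0307). Pole, the catalytic subunit, had -0.58 ± 0.16 (adjusted p = 0.0469). Pold2 and Pold1 of polymerase delta had -0.45 and -0.24 and did not pass. By its brightest probe set Pold1 was lower in Dox- only, with 0.02 in Dox+ and -0.51 in Dox-. Its second probe set fell in both media between D0.5 and D3.5, from 246 to 185 in Dox+ and from 222 to 170 in Dox-.

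Rfc5 fell furthest of the 44 genes, while the brightest probe sets of the clamp and the other clamp loader genes stayed within 0.21 of 0. Rfc5, which encodes a small subunit of the clamp loader, read 1873 in undifferentiated cells, 2205, 1688, 1374 and 1002 in Dox+, and 2040.2, 1369, 942 and 867 in Dox-. It was lower at each step in both media, and its difference of -1.17 ± 0.12 was 2.25-fold (limma adjusted p = 0.00457). Rfc1 to Rfc4, whose products join Rfc5 in 1 complex, had differences of -0.15, -0.19, 0.21 and -0.01. Other probe sets gave -0.37 and -0.30 for Rfc1, 0.20 and -0.04 for Rfc2, 0.42 for Rfc3 and -0.07 for Rfc4. Pcna read 3919 in undifferentiated cells, 4537, 4150, 4071 and 4173 in Dox+, and 4158, 4485, 4067 and 3602 in Dox-. The ranges of its D0.5 and D3.5 arrays overlap, and its difference was -0.16 ± 0.09 (adjusted p = 0.234, 95% interval -0.38 to 0.05).

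Of the 3 genes of replication protein A, the trimer that coats single-stranded DNA, Rpa1 and Rpa2 fell and Rpa3 did not pass. Rpa1 read 3596 in undifferentiated cells, 3956, 2726, 2553 and 2379 in Dox+, and 3592, 2541, 2093 and 1830.3 in Dox-. The largest step was the first in both media, every step was down, and the difference was -0.85 ± 0.09 (limma adjusted p = 0.00479). Rpa2 read 977, then 1005, 656, 559 and 599 in Dox+ and 860, 704, 605 and 404.5 in Dox-. Both of its D3.5 arrays lay below both D0.5 arrays, with a difference of -0.89 ± 0.19 (adjusted p = 0.0226). Second probe sets gave -0.87 for Rpa1 and -0.91 for Rpa2. Rpa3 read between 538 and 702 on all 9 arrays, with a difference of 0.03 ± 0.13 (adjusted p = 0.885, 95% interval -0.28 to 0.34).

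None of the 4 tested genes of Okazaki fragment processing and nucleotide supply passed. Fen1, the flap nuclease, and Lig1 had differences of -0.29 ± 0.21 and -0.43 ± 0.18. Rrm2 and Rrm1, the subunits of ribonucleotide reductase, had -0.31 ± 0.10 and 0.17 ± 0.16. Across the whole group, second probe sets of mean signal at least 50 exist for 23 genes. Of these 33 probe sets, 31 had the sign of the brighter one, and the exceptions were in Orc4 and Rfc2. All 9 such probe sets of called genes were negative. The probe sets used for Mcm2, Mcm3, Mcm7 and Gins2 (s_at type) and for Mcm5, Pold1, Fen1 and Rrm2 (x_at type) can detect more than 1 transcript. Other probe sets gave -0.71 for Mcm2, and -0.50 and -0.38 for Mcm5.

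**Figure D3:**
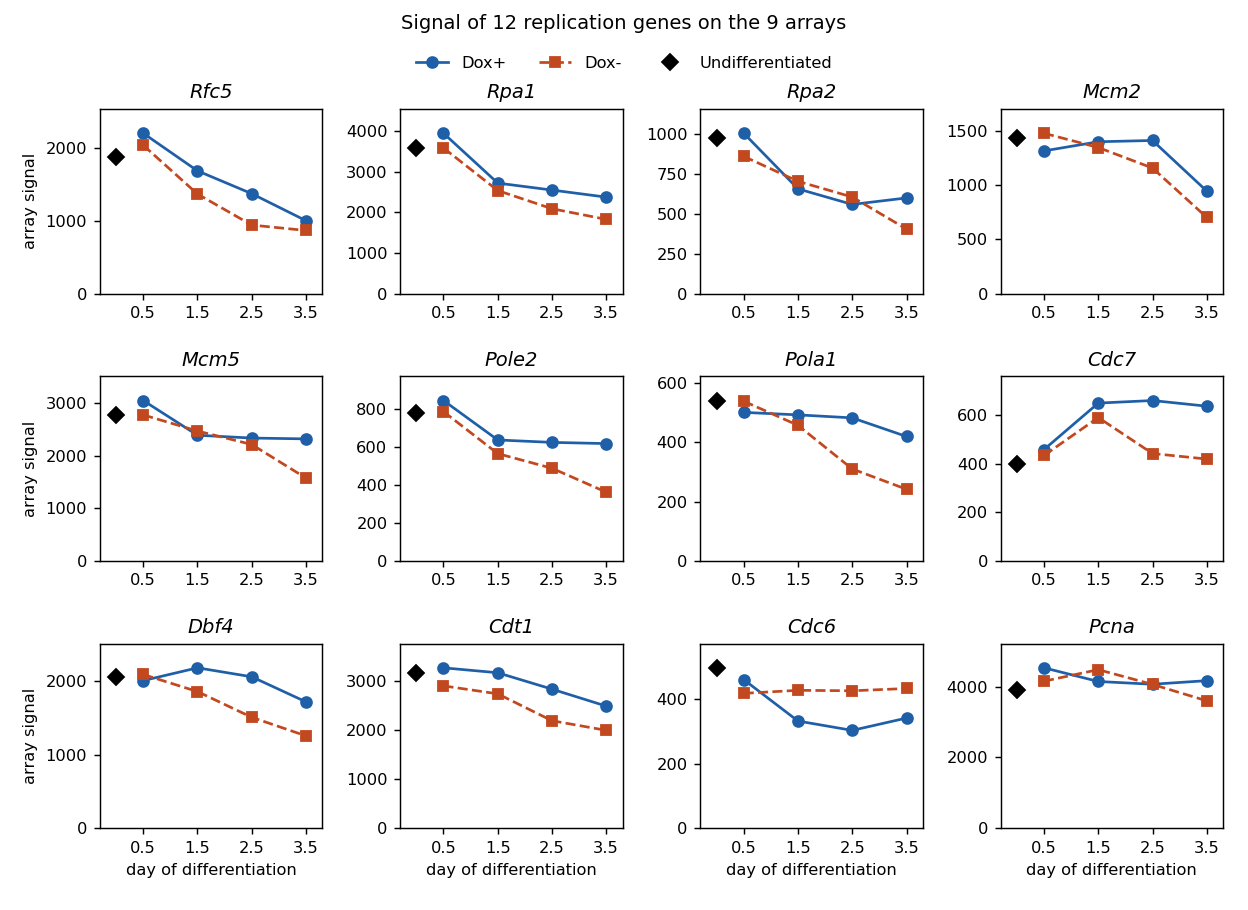
Array signal (linear axis from 0) of 12 replication genes against day, with circles and solid lines for Dox+, squares and dashed lines for Dox-, and a black diamond at the left for undifferentiated cells; each point is 1 array. Rfc5 and Rpa1 decline in both media from D0.5 on, Cdc7, Dbf4 and Pola1 part by medium on the last 2 days, Cdc6 is higher in Dox- from D1.5, and Pcna stays between 3602 and 4537.

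Over the 4 days as a whole, no replication gene passed the test between media. With day as a block, 0 of the 44 genes and 0% of all 8716 genes passed (limma, lowest adjusted p 0.416), and at an unadjusted p under 0.05 the counts were 8 of the 44 and 1026 of all. The median Dox- less Dox+ difference was -0.08, against -0.01 over all genes. Pold2, a polymerase delta subunit, lay lowest (-0.38 ± 0.10, 95% interval -0.62 to -0.13, adjusted p = 0.416), followed by Pola1, Pole2 and Cdc7 (each -0.34). Cdc6 lay highest (0.25 ± 0.12), then Cdc45 (0.21) and Rrm1 (0.18). A difference that grows or shrinks steadily with day was found for 0 of the 44 and 0% of all genes (limma, lowest adjusted p among the 44 genes 0.407), with 3 and 736 at an unadjusted p under 0.05. Dox- read below Dox+ on all 4 days for 9 genes, Orc1, Orc2, Cdt1, Cdc7, Pold1, Pold2, Pole2, Rfc5 and Rpa1 (12.1% of all genes), and above on all 4 days for Orc6 and Gins4 (8.67% of all genes).

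Day by day, the group median of the Dox- less Dox+ difference lay furthest from 0 on D3.5. Over the 44 genes it was -0.11, 0.0012, 0.0036 and -0.21 in order of day, where all genes had -0.04, 0.01, 0.01 and 0.00067. On D3.5, 33 of the 44 genes read lower in Dox-, against 49.9% of all genes, but on D0.5 32 of the 44 already did, against 58.9% of all genes. None of the 44 was 2-fold lower or higher in Dox- on any day. Of all genes 0.0229%, 1.42%, 4.45% and 4.80% were 2-fold lower in order of day, and 0.0918%, 1.33%, 3.41% and 4.13% higher. Each of these values sets 1 array against another and has no test. All 6 MCM genes read lower in Dox- on D3.5, by between 0.31 (Mcm4) and 0.55 (Mcm5) on the log2 scale, although on D2.5 they lay between -0.28 (Mcm2) and 0.20 (Mcm4). The probe sets of Mcm5 disagree here: for its second one the D3.5 signals were 341.5 (Dox+) and 370.6 (Dox-), a difference of 0.11, and was higher in Dox- on all 4 days. By their brightest probe sets all 8 polymerase genes read lower too, furthest Pola1 (-0.76), Pole2 (-0.75), Pold1 (-0.57) and Pold2 (-0.54). The second probe set of Pold1 gave only -0.11, that of Prim1 -0.14, and that of Prim2 lay the other way at 0.03. The licensing factors did not share a sign, with -0.32 for Cdt1, 0.13 for Gmnn and 0.33 for Cdc6, and Cdc45 lay highest of all at 0.48. The D3.5 Dox- array was the lowest of the 9 arrays for 26 of the 44 genes, against 21.2% of all genes, and on that array the pluripotency sum was lowest and the fibroblast sum highest; their part in the difference was not tested.

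**Figure D4:**
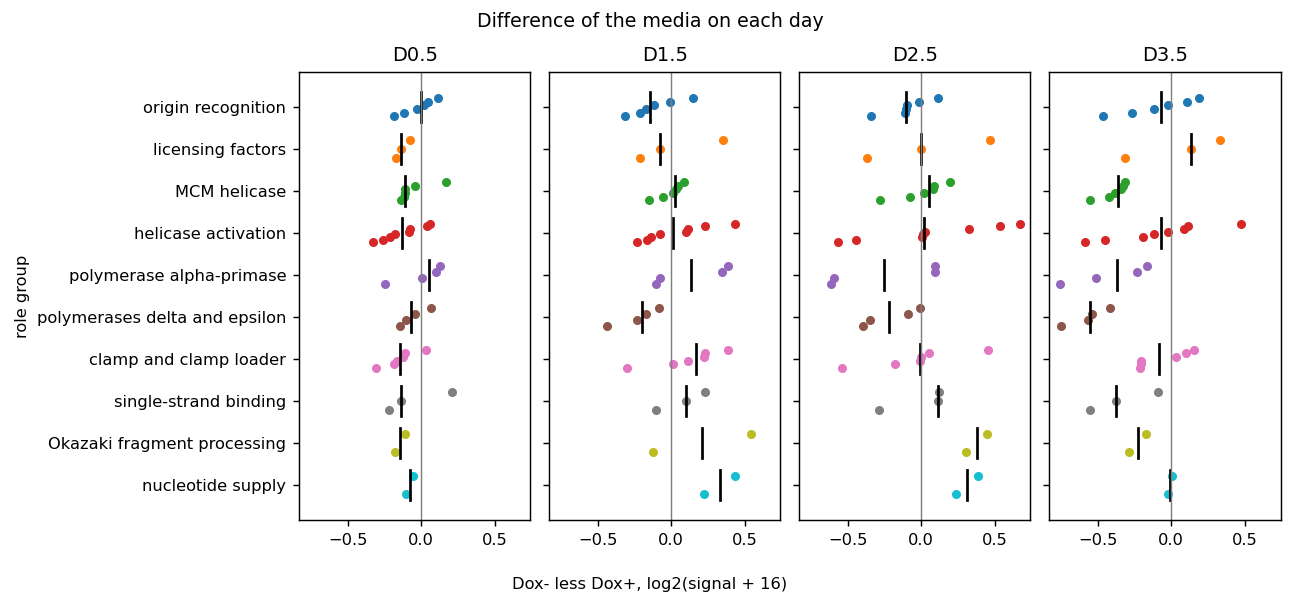
Dox- less Dox+ difference in log2(signal + 16) of each of the 44 tested genes on each day (panels), by role group (rows); each point is a gene, from 1 array per medium, and black bars are role group medians. On D3.5 all points of the MCM, both polymerase, single-strand binding and Okazaki groups lie left of 0, whereas on D1.5 and D2.5 most groups straddle it.

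When the last 2 days, D2.5 and D3.5, were fitted jointly, 3 genes were lower in Dox-: Cdc7, Dbf4 and Pola1, the first being the kinase that activates the MCM helicase and the second its regulatory partner. The fit tests 1 difference shared by both days, with day as a block. It has no term for a media difference on D0.5 and D1.5, so gaps between media on those days count as spread. The fit was chosen in earlier work on these arrays after their values were seen, so its p-values describe these arrays and support nothing further. Of the 44 genes 3 passed as lower (6.82%), against 4.35% of all genes (379), and 0 as higher, against 2.83% (247). Called either way were 7.18% of all genes, so the share of called replication genes was near that of all genes. Cdc7 read 401 in undifferentiated cells, 459, 651, 661 and 638 in Dox+, and 435, 591, 443 and 420 in Dox-. It was higher than at the start on all Dox+ arrays, and in Dox- it was back near the D0.5 level by D2.5. Its fitted difference was -0.57 ± 0.11 (limma adjusted p = 0.0303), 1.49-fold lower in Dox-. Dbf4 read 2059, then 2005, 2179, 2057 and 1716 in Dox+ and 2088, 1856, 1507 and 1254 in Dox-. The gap between media was smallest on D0.5, and the shared late difference was -0.45 ± 0.10 (adjusted p = 0.0474). Pola1 read 541, then 501, 492, 482 and 419.5 in Dox+ and 538.5, 457, 309.9 and 241 in Dox-. Its late arrays did not overlap between media, and the difference was -0.69 ± 0.12 (adjusted p = 0.0205), 1.61-fold lower in Dox-.

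On the same arrays the 7 mesoderm markers summed to 50.2 and 736 in Dox+ and to 3758 and 3762 in Dox-, and the 5 pluripotency markers to 4534 and 4971 against 3432 and 1169. Nanog alone read 826 and 1887 in Dox+ against 1324 and 306 in Dox-, and so was higher in Dox- on D2.5. The part of these markers in the difference of Cdc7, Dbf4 and Pola1 was not tested. The Dbf4 call held under 5 of 12 other settings and was also lost with quantile normalization (adjusted p = 0.0584), with no filter on dim genes (0.0807) and without the mean-variance trend (0.108). The Cdc7 and Pola1 calls held under 8 of 12. All 3 calls were lost without the arrays of D0.5, of D2.5 or of D3.5, when 0 of the 44 genes passed. They were also lost when all probe sets of a gene were averaged; the second probe sets of Dbf4 and Pola1 read at most 8.80 and 5.80, and that of Cdc7 between 31.5 and 58.0. Some genes that did not pass had values of similar size. Pola2 and Pole2 had -0.55 ± 0.16 and -0.55 ± 0.14 (adjusted p = 0.0924 and 0.0641). Cdc45, Cdc6 and Mcm10 lay the other way, at 0.40 ± 0.15, 0.40 ± 0.15 and 0.33 ± 0.18. Cdc6 read 498 in undifferentiated cells, 461, 332, 303 and 342 in Dox+, and 418, 428, 426 and 433 in Dox-, so that the Dox- arrays stayed level while the later Dox+ arrays read lower. Cdc45, the helicase cofactor, read 252, 141, 129 and 167.5 in Dox+ and 215.5, 168, 166 and 239 in Dox-. Rpa1 and Rfc5, which had the smallest adjusted p of the 44 genes by day, had -0.33 ± 0.09 and -0.37 ± 0.14 (adjusted p = 0.0730 and 0.153).

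Other genes of S phase and of the cell cycle were read from lists of textbook members. Of 28 tested genes of other fork proteins and chromatin assembly, 10 fell from D0.5 to D3.5 and 0 rose, where 10.2% of all genes fell and 11.8% rose, with a median of -0.38 and a range from -1.93 (Msh6) to 0.15 (Mcm8). Msh6, a mismatch repair gene, read 2370.1 in undifferentiated cells, 2703 and 1074 on D0.5 and D3.5 in Dox+, and 2776 and 465 in Dox- (-1.93 ± 0.27, limma adjusted p = 0.00803). Of 28 tested genes of G1/S control, 2 fell (E2f8 and Chek1) and 2 rose (E2f5 and Ccne2), each a smaller share than over all genes, and the median was -0.09. The extremes of that list, Ccne1 (-1.13) and Ccnd2 (1.41), did not pass. Of 20 tested mitosis genes, 6 fell and 0 rose, with a median of -0.22 and a range from -0.61 (Aurka) to 0.11 (Cenpe). Between media over the last 2 days, 0 genes of the fork list and 0 of the mitosis list passed, where 4.35% of all genes were lower and 2.83% higher. In the G1/S list Ccnd2, the cyclin D2 gene, was higher in Dox- (2.48 ± 0.34, adjusted p = 0.00877), and Ccne1, the cyclin E1 gene, was lower (-1.003 ± 0.21, adjusted p = 0.0365).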

How the data were processed

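Gene expression was measured on 9 arrays of biotin-labelled total RNA from mouse ES cells, 1 array per group, and the groups were taken from the labels. The authors deposited 1 table of linear intensity values for 45101 probe sets; per the submitters' processing notes the software was GCOS, the Affymetrix program, and no version of it is named. The deposited intensity values have a mean of 100 on every array once the highest and lowest 2% are left out, so no further normalization was applied. No scanner files were used here. Of the probe sets, 34945 have 1 gene symbol in the platform annotation, 932 have several and 9224, with 64 controls among them, are unnamed here; 34741 were matched by gene ID to RefSeq genes of GRCm38.p6. Of 18193 genes 9010, and of the 45 replication genes 34, have more than 1 probe set.

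Values are log2(signal + 16). Genes that reached a signal of 50 on 2 or more arrays were tested with limma 3.58.1 in R 4.3.3 (lmFit, eBayes with a mean-variance trend) on the 8 differentiating arrays. Media and days were compared in 1 additive fit of both (3 residual degrees of freedom), the change of the media difference with day in a second (4), and D2.5 and D3.5 together in the last (3). P-values were adjusted by Benjamini-Hochberg over all 8716 genes. With 1 array per group the number of arrays limits the precision, and differences of single arrays carry no test. The fits were tested on simulated data with known changes of at least 2-fold and independent noise. Most differences of the replication genes are smaller than that, and the simulation does not cover them.

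The members, lists and tests were chosen with earlier results of these data known. Named are Mcm2 and Pcna, every called member, the 3 members furthest each way in a comparison, the brightest member of each role group and the one with the largest media difference; other members are given for completeness. Alternatives were other pseudocounts, signal filters, normalizations, probe set summaries and variance models, other blocks, and leaving out arrays; leaving out single arrays was added after the data were seen. Figures were drawn with matplotlib 3.10.9.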

Additional observations from a re-analysis of the deposited data

Results flagged for a closer look

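For 2 genes the Dox- less Dox+ difference pointed in opposite directions on different days by at least 0.3 on the log2 scale each way, 1 array per medium and day. Pola2, the second subunit of polymerase alpha, had a signal of 318 without and 248 with doxycycline on D1.5, a difference of 0.343, and of 189.8 against 295 on D2.5, a difference of -0.595. Rfc3, a clamp loader subunit, had a signal of 203 without and 256 with doxycycline on D0.5, a difference of -0.310. On D2.5 it had 303 against 217, a difference of 0.454. The second Rfc3 probe set, of mean signal 222, read 181.1 without and 170.9 with doxycycline at D0.5, a difference of 0.077. The later differences of that probe set were 0.436, 0.417 and -0.141 in order of day. It therefore did not reach 0.3 in both directions. With 1 array for each combination of day and medium, the difference between days was not tested. No group held enough arrays to look for an outlying one.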

How the results depend on the processing

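The D3.5 less D0.5 count of 11 replication genes became 6 with no filter on dim genes, 18 with arrays centred on the median of all genes, 6 with the mean of all probe sets, 7 without the mean-variance trend and 6 without the medium block; leaving out days or single arrays gave 0 to 11. No called gene's difference changed sign under an alternative. Rfc5 and Rpa1 were called under 15 of 16 alternatives, Mcm2 under 14, Rpa2 under 13, Cdt1 under 11 and the other 6 genes under 4 to 9. Centring moved the median of all genes from 0.02 to -0.09, the group median from -0.34 to -0.44 and the split of all calls from 1027 higher and 890 lower to 830 and 1158. Over all genes 894 passed without the D0.5 Dox+ array, 66 without the D0.5 Dox- array and 797 without the D3.5 Dox- array, in place of 1917. For D2.5 and D3.5 together the count of 3 became 0 with the mean of all probe sets, 2 (without Dbf4) with quantile normalization, with no filter on dim genes and without the mean-variance trend, 4 with centred arrays, and 0 to 3 when a day was left out; over all genes 626 became 399 with the mean of all probe sets, 228 without D0.5 and 328 without D3.5. Where arrays were left out, fewer arrays entered the fit; for the other settings the cause was not tested. The comparison of media over 4 days and its change with day kept 0 called replication genes under each alternative run. The labels give no replicate numbers; arrays were matched by day or by medium only.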
